A study of Mus musculus with 8 samples.

Results

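The 60 genes of the ephrin, semaphorin, plexin, neuropilin and Slit-Robo families were examined among the 24063 gene symbols listed for mouse kidney tubuloids. Members were matched by symbol, and the rule itself used no measured value. They comprised 8 ephrins, 14 ephrin receptors, 7 class 3 semaphorins, 13 semaphorins of classes 4 to 7, 2 neuropilins, 9 plexins, 3 Slits and 4 Robos. Tubuloids are structures grown in Matrigel from fragments of kidney tubules, here from mice between postnatal days 7 and 10. In 4 cultures (6, 12, 17 and 22) GDNF, the ligand of the Ret receptor that drives branching of the ureteric bud, was given as a 24 h pulse. The other 4 cultures (3, 7, 14 and 21) received the same growth factor medium without it. All 8 carried the genotype Pkd2fl/fl Pax8rtTA TetOCre mTmG, in which the Pax8 promoter directs a doxycycline-inducible Cre to renal epithelium, and no doxycycline was named for any of them. RNA was taken on day 7 of culture and sequenced from poly-A selected libraries.

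Between 72991721 and 97490625 transcript-level counts were assigned in each culture. The labels do not say whether cultures came from separate animals, so p-values measure the spread between these cultures. *Xist* RNA was prominent in 2 cultures of each group (control 3 and 7, GDNF 6 and 12) and Y-linked RNA in the others, with some Y-linked RNA also in control 3 and GDNF 6. Control 3 stood apart in its scaling factor by the trimmed mean of M-values (TMM), which was 0.790 against 0.963 to 0.982 in the other controls and 1.07 to 1.11 after GDNF. The summed level of 10 markers of tubule epithelium ranged from 579 to 3886 CPM (counts scaled to the size of the library) in controls and from 1152 to 2225 CPM after GDNF. The summed level of 10 stromal markers ranged from 782 to 4768 CPM and from 652 to 3213 CPM, so both sets of markers were measured in every culture. In such bulk samples, fewer cells of a type and less RNA per cell cannot be told apart.

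Guidance genes were named for the steering of axons and are also used by epithelia and vessels. Ephrins are membrane-bound ligands of the Eph receptor tyrosine kinases, and contact between cells bearing them can signal in both directions and sort cells at boundaries. Secreted class 3 semaphorins mostly signal through neuropilins paired with plexins, whereas membrane-bound semaphorins mostly bind plexins directly. Slits are secreted ligands of Robo receptors, and Slit2 acting through Robo2 is known to restrict where GDNF is expressed and the ureteric bud forms in the developing kidney.

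Levels between genes were compared per length, as the deposited TPM (reads scaled to transcript length and library size) of the transcript with the most reads. *Nrp1*, a coreceptor for class 3 semaphorins and VEGF, had the highest level of the 60 genes on this measure, at 38.0 ± 10.7 TPM in controls and 62.9 ± 10.1 TPM after GDNF (SD, n = 4 in each group). The semaphorin ligand *Sema3f* followed at 21.9 ± 4.61 and 41.1 ± 4.62 TPM. *Efnb1*, a transmembrane ephrin, stood at 23.6 ± 6.41 and 35.9 ± 8.72 TPM, and *Efna1*, an ephrin held by a lipid anchor, at 28.6 ± 9.58 and 28.8 ± 9.84 TPM. The receptor *Epha2*, which binds *Efna1*, had 16.0 ± 11.4 and 15.1 ± 1.55 TPM. The receptor *Ephb4* had 11.3 ± 1.13 and 14.2 ± 3.43 TPM, and its ligand *Efnb2* had 18.5 ± 6.67 and 30.8 ± 5.20 TPM. The plexin with the highest level was *Plxnb2*, a receptor for class 4 semaphorins, at 15.7 ± 2.86 and 24.96 ± 3.85 TPM. Among Slits, *Slit3* (7.31 ± 6.83 and 7.59 ± 5.47 TPM) and *Slit2* (4.09 ± 2.11 and 8.73 ± 2.20 TPM) were far above *Slit1* (0.195 ± 0.067 and 0.587 ± 0.330 TPM). *Robo2* (3.29 ± 1.91 and 6.31 ± 3.91 TPM) and *Robo1* (2.65 ± 1.13 and 5.76 ± 0.948 TPM) were above *Robo4*, an endothelial receptor, and *Robo3*. This order depends on taking 1 transcript per gene. Summed over transcripts, where a read that fits several is entered under each, the mean over all cultures was 61.1 TPM for *Plxnb2* and 57.04 TPM for *Efna1*, both above *Nrp1* at 50.5 TPM, and 25.6 TPM for *Ephb4*. TPM values are not corrected for the composition of a library, and the next comparisons therefore use TMM-scaled counts.

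**Figure D1:**
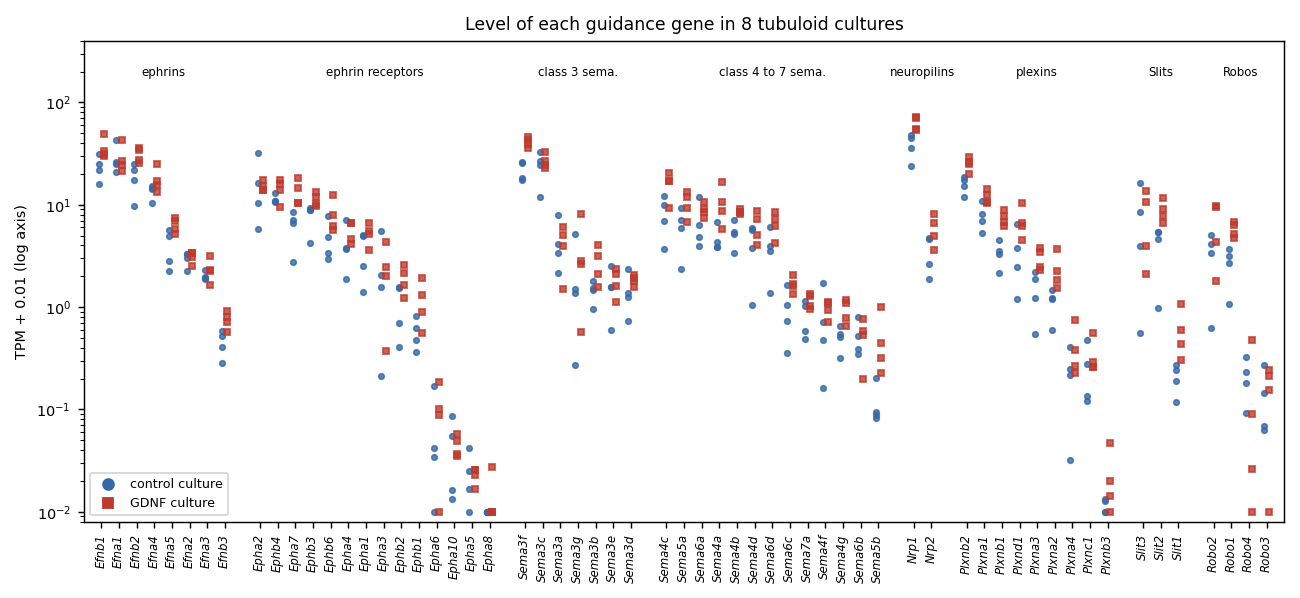
Deposited TPM plus 0.01 on a log axis for each of the 60 genes, grouped by family and ordered by level within it, with circles for the 4 control cultures and squares for the 4 GDNF cultures. *Nrp1* has the highest level by its single transcript and *Epha8* lies at the foot of the plot.

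At the low end, *Epha8* had 4 reads in GDNF culture 6 and 0 in the others, where a count of 0 allows up to 3. *Plxnb3* had at most 11 reads and *Epha5* at most 12 in any culture. These 3 genes did not pass the filter on low counts, which left 57 members tested.

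The question addressed by the comparison was whether transcripts differed between pulsed and control cultures on day 7, when the GDNF pulse had ended. No member passed an adjusted p of 0.05 in edgeR, and 0.00% of the 16557 genes tested did, the smallest adjusted p among members being 0.167. At an unadjusted p of 0.05, 9 of the 57 members were higher after GDNF, beside 9.25% of all genes, and 0 were lower, beside 12.9% of all genes. The 9 were *Plxnb1*, *Sema5b*, *Sema3f*, *Robo1*, *Slit1*, *Epha7*, *Plxna2*, *Sema4a* and *Nrp1*. The log2 fold change was above 0 in 41 of 57 members, against 52.5% of all genes, and its median was 0.33 over the members and 0.03 over all genes. DESeq2 gave an adjusted p under 0.05 to *Plxnb1* alone (log2 fold change 0.74, adjusted p = 0.0335), beside 1.36% of genes called higher and 7.65% called lower, while 18 of the 60 members received no adjusted p from it. Among these 18 were *Sema5b* and *Slit1*, with unadjusted DESeq2 p-values of 0.00195 and 0.00741, so they could not be called. At an adjusted p of 0.1 DESeq2 also called *Sema3f*, *Robo1* and *Epha7*, beside 4.91% of genes called higher. Values are also given from an edgeR fit with length offsets, which remove each culture's trend of counts with transcript length, since the groups differed in the share of counts in long transcripts.

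**Figure D2:**
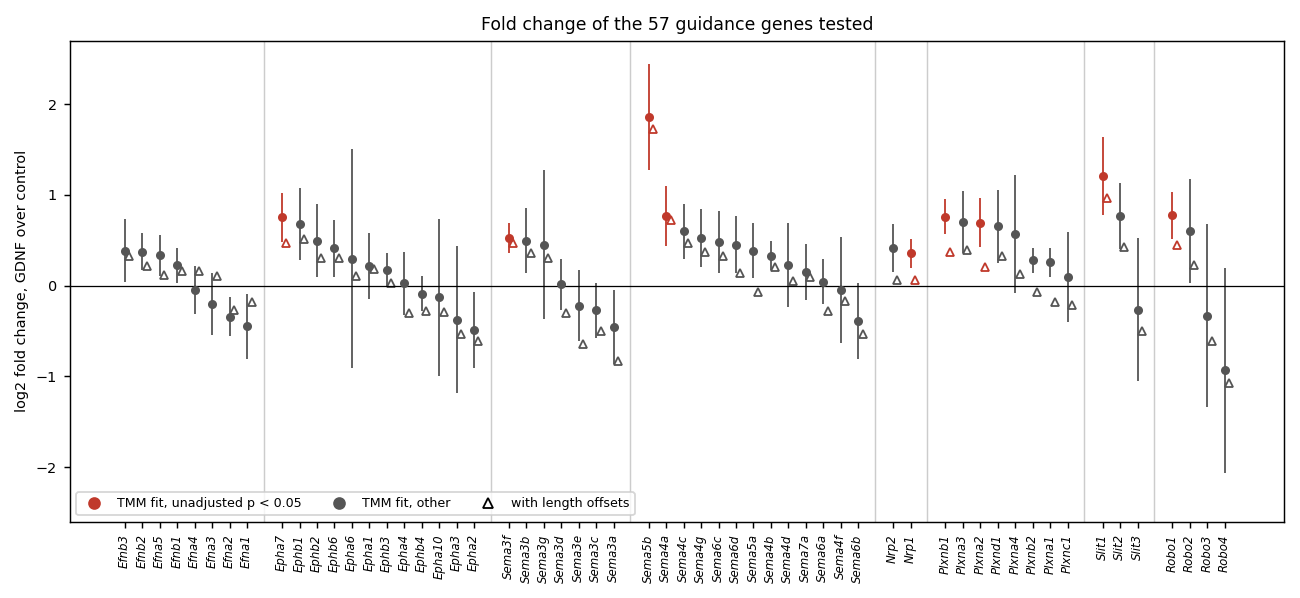
Log2 fold change of GDNF over control for the 57 members tested, by family, with circles for the TMM-scaled edgeR fit (bars are 1 SE, red where unadjusted p was under 0.05) and open triangles for the fit with transcript length offsets. The 9 red circles all lie above 0, and most triangles of the plexins and neuropilins lie below their circles.

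The values of the 4 GDNF cultures all lay above those of the 4 controls for 4 members, *Plxnb1*, *Sema3f*, *Robo1* and *Slit2*, beside 6.99% of all genes. No member had all GDNF values below the controls, beside 6.26% of all genes. For a single gene this separation gives 0.0286 in a two-sided exact permutation test, the smallest p that 4 against 4 cultures allow, unadjusted for the 57 members. The 4 genes were picked by this separation, so that p follows from the choice and adds no support. With library size alone 11 members had all GDNF values above the controls and 0 below, beside 14.5% and 2.1% of all genes, and on deposited TPM 15 and 0, beside 20.6% and 0.61%. The bases upstream of the annotated start of the 3 of these genes listed in the RefSeq promoter table (assembly GRCm38.p6) are shown because these are the members whose groups did not overlap. The 250 bases before the start lie at chr9:109095186-109095435 for *Plxnb1*, at chr5:47982905-47983154 for *Slit2* and at chr16:72662899-72663148 for *Robo1*, all on the plus strand and all inside the wider gene span of the annotation, so other start sites exist. Capitals mark matches, on either strand, to the GC box GGGCGG, the ETS motif CCGGAAG, the E-box CACGTG or the TATA box TATAAA.
Plxnb1: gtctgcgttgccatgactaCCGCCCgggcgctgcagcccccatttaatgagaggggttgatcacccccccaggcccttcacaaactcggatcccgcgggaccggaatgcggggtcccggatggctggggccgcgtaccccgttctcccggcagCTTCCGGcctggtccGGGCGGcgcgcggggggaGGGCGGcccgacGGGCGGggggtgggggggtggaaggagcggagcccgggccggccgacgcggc
Slit2: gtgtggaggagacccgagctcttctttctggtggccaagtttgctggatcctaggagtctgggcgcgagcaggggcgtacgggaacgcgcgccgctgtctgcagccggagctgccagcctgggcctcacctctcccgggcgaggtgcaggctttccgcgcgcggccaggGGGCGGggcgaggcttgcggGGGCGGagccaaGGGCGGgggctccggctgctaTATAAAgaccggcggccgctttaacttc
Robo1: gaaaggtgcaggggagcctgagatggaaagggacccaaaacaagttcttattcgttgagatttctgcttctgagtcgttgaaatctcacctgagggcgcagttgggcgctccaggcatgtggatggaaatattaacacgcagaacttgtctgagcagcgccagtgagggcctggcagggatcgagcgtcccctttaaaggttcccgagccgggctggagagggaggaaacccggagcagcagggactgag

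The *Plxnb1* window held 4 GC boxes and 1 ETS match, the *Slit2* window 3 GC boxes and 1 TATA box that ends 23 bases before the start, and the *Robo1* window none of the 4 motifs. GC content was 75.2%, 69.6% and 56.0%, against a median of 52.4% over all 32851 promoter windows of this length and of 64.0% over those of the members. The GC box occurred in 32.7% of all windows and the TATA box in 12.4%, the ETS motif in 6.91% and the E-box in 6.02%. Of the 60 members 53 had an entry, with 69 windows, of which 49 (71.0%) held a GC box, 2 the TATA box, 2 the ETS motif and 4 the E-box. A match describes these letters only.

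Among the ligands of Eph receptors, 0 of 8 ephrins passed an unadjusted p of 0.05 in either direction. Of all genes, 9.25% were higher and 12.9% lower at that threshold. The log2 fold changes of the ephrins ran from -0.45 to 0.39. *Efna1* gave 106 CPM in control 3 and 45.1, 38.0 and 44.1 CPM in controls 7, 14 and 21. It gave 67.5, 38.7, 30.9 and 33.4 CPM in GDNF cultures 6, 12, 17 and 22. On this scale control 3 stood far above all other cultures, but on deposited TPM it (42.6 TPM) was close to GDNF 6 (43.2 TPM). The log2 fold change of -0.45 ± 0.36 (SE) became 0.01 without control 3 and -0.18 with length offsets. *Efnb1* gave 44.8, 44.4, 63.6 and 47.5 CPM in controls and 52.2, 51.0, 79.5 and 51.7 CPM after GDNF, in the same order of cultures. In each group 1 culture, control 14 and GDNF 17, was well above 3 close values, and these had the highest stromal marker sum of their group. They also had the highest podocyte marker sum (395 and 367 CPM) and the lowest tubule epithelium sum (579 and 1152 CPM) of their group. The log2 fold change of *Efnb1* was 0.23 ± 0.19 (edgeR adjusted p = 0.499). *Efnb2* gave 35.6, 67.1, 46.9 and 55.1 CPM in controls and 58.8, 77.6, 58.8 and 70.4 CPM after GDNF, so the groups overlapped (log2 fold change 0.38 ± 0.20, adjusted p = 0.288). *Efna3*, an ephrin of low level, gave 1.37 to 2.38 CPM in controls and 1.01 to 2.06 CPM after GDNF, and its sign turned with the scaling.

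Log2 fold changes of the 12 ephrin receptors tested ran from -0.49 to 0.75. At an unadjusted p of 0.05, 1 was higher and 0 were lower, beside 9.25% and 12.9% of all genes. The gene past this threshold was *Epha7*, a receptor of A-type ephrins, which gave 41.6, 96.0, 75.8 and 75.9 CPM in controls and 141, 94.3, 93.0 and 159 CPM after GDNF. GDNF cultures 12 and 17 fell just below control 7, and the groups overlapped there only. Its log2 fold change was 0.75 ± 0.27 (edgeR adjusted p = 0.174), a 1.69-fold ratio of means. Without GDNF 22 it was 0.60 and with length offsets 0.47, and neither passed the unadjusted threshold, which *Epha7* passed in 6 of 8 fits that left out 1 culture. *Epha2* gave 55.1, 25.2, 14.01 and 72.4 CPM in controls and 29.5, 27.3, 30.0 and 32.0 CPM after GDNF. The controls thus spread on both sides of 4 close GDNF values, with a log2 fold change of -0.49 ± 0.42 that became -0.78 without control 14 and then passed the unadjusted threshold. *Ephb4*, the receptor of *Efnb2*, gave 80.0, 58.6, 58.6 and 65.6 CPM in controls and 44.7, 76.6, 69.0 and 57.3 CPM after GDNF, with a log2 fold change of -0.09 ± 0.19. *Ephb3*, a receptor of B-type ephrins, gave 14.9, 22.9, 22.9 and 21.998 CPM in controls and 22.3, 27.9, 19.9 and 23.3 CPM after GDNF, with control 3 alone well below the rest.

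Class 3 semaphorins did not move one way: 4 of 7 had a log2 fold change above 0, beside 52.5% of all genes. The median was 0.02 within a range of -0.45 to 0.53. *Sema3f* alone passed an unadjusted p of 0.05, beside 9.25% of all genes higher. *Sema3f*, a secreted ligand known to prefer neuropilin 2, gave 51.2, 55.3, 38.4 and 50.2 CPM in controls and 84.1, 73.3, 66.8 and 57.3 CPM after GDNF. All GDNF values were above all controls. This gave a log2 fold change of 0.53 ± 0.17 (edgeR adjusted p = 0.167), a 1.44-fold ratio of means. It was 0.56 between the *Xist* cultures and 0.49 between the Y-linked cultures. *Sema3f* was past an unadjusted p of 0.05 in 8 of 8 fits that left out 1 culture. These fits share most of their cultures with the fit that picked *Sema3f*, so they add no independent support. With length offsets its log2 fold change was 0.47 (edgeR adjusted p = 0.220). *Sema3f* was the only member whose groups stayed apart with length offsets, beside 5.07% of all genes, and no member then had all GDNF values below the controls, beside 5.34%. *Sema3c*, a ligand of both neuropilins, gave 114, 75.3, 36.9 and 94.6 CPM in controls and 86.0, 60.4, 56.6 and 62.8 CPM after GDNF. The GDNF values lay inside the control range, and the log2 fold change was -0.27 ± 0.30, or -0.51 without control 14, which passed the unadjusted threshold. *Sema3a*, the classical ligand of neuropilin 1, gave 37.5, 42.2, 98.0 and 48.3 CPM in controls and 16.4, 39.2, 61.6 and 48.2 CPM after GDNF (log2 fold change -0.45 ± 0.41).

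Both neuropilins had log2 fold changes above 0, beside 52.5% of all genes. *Nrp1* gave 121, 132, 165 and 163 CPM in controls and 173, 159, 210 and 202 CPM after GDNF, so that GDNF 12 lay below 2 controls. A log2 fold change of 0.36 ± 0.16 resulted (edgeR adjusted p = 0.223). This was past an unadjusted p of 0.05 in 2 of 8 fits that left out 1 culture, and it was 0.06 with length offsets (edgeR adjusted p = 0.848). *Nrp2* gave 63.1, 65.8, 112 and 108 CPM in controls and 80.2, 98.7, 162 and 125 CPM after GDNF. In both groups the Y-linked cultures were above the *Xist* cultures, and the log2 fold change of 0.42 ± 0.27 (edgeR adjusted p = 0.372) passed the unadjusted threshold once the kind of culture was a covariate.

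Among the 13 semaphorins of classes 4 to 7, 2 were higher and 0 were lower at an unadjusted p of 0.05, beside 9.25% and 12.9% of all genes. Of the 13, 11 had a log2 fold change above 0, beside 52.5% of all genes, within a range of -0.39 to 1.86. *Sema5b*, a transmembrane semaphorin, had few reads, from 19 to 43 in controls and from 48 to 225 after GDNF. It gave 0.305, 0.240, 0.203 and 0.512 CPM in controls and 2.43, 0.708, 0.493 and 0.941 CPM after GDNF. GDNF 17 lay just below control 21, and the highest value was GDNF 6. The log2 fold change of 1.86 ± 0.58 (edgeR adjusted p = 0.167) was 1.18 without GDNF 6 and 1.72 with length offsets, both still past the unadjusted threshold. *Sema4a*, a transmembrane ligand of plexins, gave 42.0, 53.8, 30.2 and 31.4 CPM in controls and 112, 67.2, 36.5 and 51.9 CPM after GDNF. The groups overlapped, and the log2 fold change of 0.77 ± 0.33 (edgeR adjusted p = 0.213) was 0.40 without GDNF 6 and passed the unadjusted threshold in 3 of 8 fits that left out 1 culture. The summed level of 8 collecting duct markers was also highest in GDNF 6, at 96.7, 102, 22.6 and 52.0 CPM in controls and 218, 109, 33.6 and 57.3 CPM after GDNF, with 0 of 7 markers past the unadjusted threshold, and its part in the *Sema4a* difference was not tested. *Sema4c*, a ligand of *Plxnb2*, gave 12.1, 23.5, 28.9 and 15.2 CPM in controls and 18.8, 32.6, 38.9 and 30.4 CPM after GDNF (log2 fold change 0.60 ± 0.30, adjusted p = 0.268). *Sema5a* gave 21.5 to 62.6 CPM in controls and 39.0 to 68.3 CPM after GDNF, a log2 fold change of 0.39 ± 0.30 that was -0.07 with length offsets. *Sema4d*, the ligand of *Plxnb1*, gave 29.0, 31.9, 5.91 and 31.2 CPM in controls and 35.6, 39.1, 18.5 and 21.5 CPM after GDNF. Control 14, the culture with the highest stromal and the lowest tubule epithelium marker sum, was far below the other controls. The log2 fold change was 0.23 ± 0.46.

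All 8 plexins tested had log2 fold changes above 0, from 0.10 to 0.76, beside 52.5% of all genes above 0. Of these, 2 were past an unadjusted p of 0.05, beside 9.25% of all genes higher. The 8 are long, with transcripts of 6500 to 12588 bp. With length offsets 5 of the 8 were above 0, beside 49% of all genes, and 0 passed, beside 6.57% higher and 10% lower. *Plxnb1*, the receptor of *Sema4d*, gave 15.8, 24.4, 18.9 and 16.5 CPM in controls and 36.1, 37.8, 29.2 and 25.1 CPM after GDNF, with all GDNF values above all controls. For *Plxnb1* the log2 fold change was 0.76 ± 0.19 (edgeR adjusted p = 0.167), a 1.70-fold ratio of means. It was 0.88 between the *Xist* cultures and 0.62 between the Y-linked cultures. With length offsets it was 0.37 (edgeR adjusted p = 0.381), no longer past the unadjusted threshold. *Plxna2*, a receptor for class 3 and class 6 semaphorins, gave 5.55, 8.25, 8.33 and 9.23 CPM in controls and 9.04, 10.2, 12.2 and 19.3 CPM after GDNF, so that GDNF 6 lay just below control 21. Its log2 fold change of 0.70 ± 0.27 (edgeR adjusted p = 0.191) was 0.42 without GDNF 22 and 0.20 with length offsets, neither of which passed the unadjusted threshold. *Plxnb2* gave 199, 210, 185 and 208 CPM in controls and 206, 283, 245 and 239 CPM after GDNF (log2 fold change 0.28 ± 0.14), and *Plxna1*, a plexin that pairs with neuropilins, gave 38.7 to 56.2 and 47.0 to 61.3 CPM (0.26 ± 0.16). With length offsets these log2 fold changes were -0.07 and -0.18. *Plxnc1*, the receptor of *Sema7a*, gave 0.665, 2.07, 0.555 and 1.10 CPM in controls and 0.949, 1.92, 0.986 and 0.830 CPM after GDNF.

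*Slit2*, a ligand of *Robo1* and *Robo2*, gave 28.5, 115, 96.9 and 105 CPM in controls and 119, 154, 131 and 187 CPM after GDNF. All GDNF values were above all controls, although GDNF 6 exceeded control 7 only slightly, and control 3 was far below the rest. The log2 fold change was 0.77 ± 0.36 (edgeR adjusted p = 0.241), short of the unadjusted threshold, and 0.48 without control 3, which passed it. With length offsets it was 0.43 (edgeR adjusted p = 0.440). *Slit1* had 35 to 73 reads in controls and 75 to 210 after GDNF. It gave 0.485, 0.762, 0.587 and 0.786 CPM in controls and 1.19, 1.53, 0.770 and 2.60 CPM after GDNF, with GDNF 17 just inside the control range. Its log2 fold change was 1.21 ± 0.43 (edgeR adjusted p = 0.173), or 0.82 without GDNF 22, which did not pass the unadjusted threshold, and 0.97 with length offsets, which did. *Slit3* gave 2.33, 12.3, 50.8 and 24.3 CPM in controls and 5.65, 9.77, 34.04 and 25.3 CPM after GDNF, a wide spread within both groups (log2 fold change -0.26 ± 0.79).

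*Robo1* gave 6.84, 17.3, 12.8 and 13.9 CPM in controls and 20.9, 18.02, 24.0 and 24.2 CPM after GDNF. All GDNF values were above all controls, GDNF 12 by a narrow margin over control 7. For *Robo1* the log2 fold change was 0.78 ± 0.26 (edgeR adjusted p = 0.167), a 1.72-fold ratio of means. It was 0.69 between the *Xist* cultures and 0.85 between the Y-linked cultures, 0.57 without control 3, and 0.45 with length offsets (edgeR adjusted p = 0.273), both past the unadjusted threshold. *Robo2*, the receptor tied to the site of bud outgrowth, gave 4.20, 20.7, 25.2 and 15.7 CPM in controls and 7.68, 17.4, 38.0 and 37.0 CPM after GDNF. The groups overlapped widely, with a log2 fold change of 0.60 ± 0.57 (adjusted p = 0.550). *Robo3* and *Robo4* had 0 reads in GDNF 22 and at most 77 and 83 in any culture, with log2 fold changes of -0.33 ± 1.01 and -0.93 ± 1.13.

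**Figure D3:**
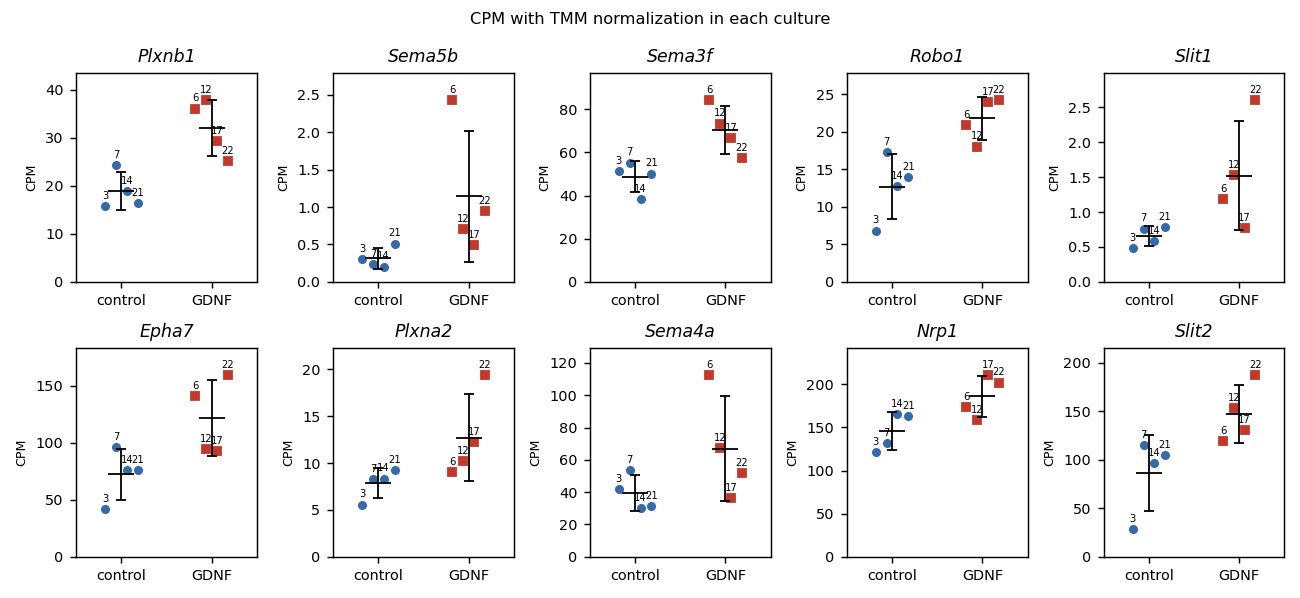
CPM with TMM scaling in each culture for the 10 members past an unadjusted p of 0.05 or with groups that did not overlap, with the culture number beside each point and the group mean ± SD as a bar. *Plxnb1*, *Sema3f*, *Robo1* and *Slit2* show no overlap between the control and GDNF cultures. Control 3 is the lowest culture for *Robo1*, *Slit2*, *Plxnb1*, *Nrp1*, *Epha7*, *Plxna2* and *Slit1*. Control 14 is the lowest for *Sema3f*, *Sema5b* and *Sema4a*.

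Transcript length moved with the groups. Transcripts of at least 4000 bp held 14.6% of counts in control 3 and 21.9%, 21.4% and 22.5% in controls 7, 14 and 21. They held 23.3%, 27.3%, 28.0% and 28.7% in GDNF cultures 6, 12, 17 and 22, so the 2 groups did not overlap. The tested members were long, with a median of 4667 bp against 2674 bp over all genes, and 39 of 57 (68.4%) reached 4000 bp against 26.5% of all genes. The median log2 fold change was 0.29 over all 4395 long genes and -0.09 over the 12162 shorter ones. Among members it was 0.38 over the 39 long and 0.18 over the 18 shorter genes. With offsets that removed each culture's trend with length, 4 members (*Sema3f*, *Sema5b*, *Robo1* and *Slit1*) were higher at an unadjusted p of 0.05, beside 6.57% of all genes, and 0 were lower, beside 10% of all genes. The median over members was then 0.12, against -0.01 over all genes, with 36 of 57 above 0 against 49% of all genes. With library size alone as the scaling, 17 members were higher, beside 19.9% of all genes, 0 were lower, beside 5.13%, and 47 of 57 had a log2 fold change above 0, beside 68.1%, while the median of all genes stood at 0.25 and that of members at 0.53.

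**Figure D4:**
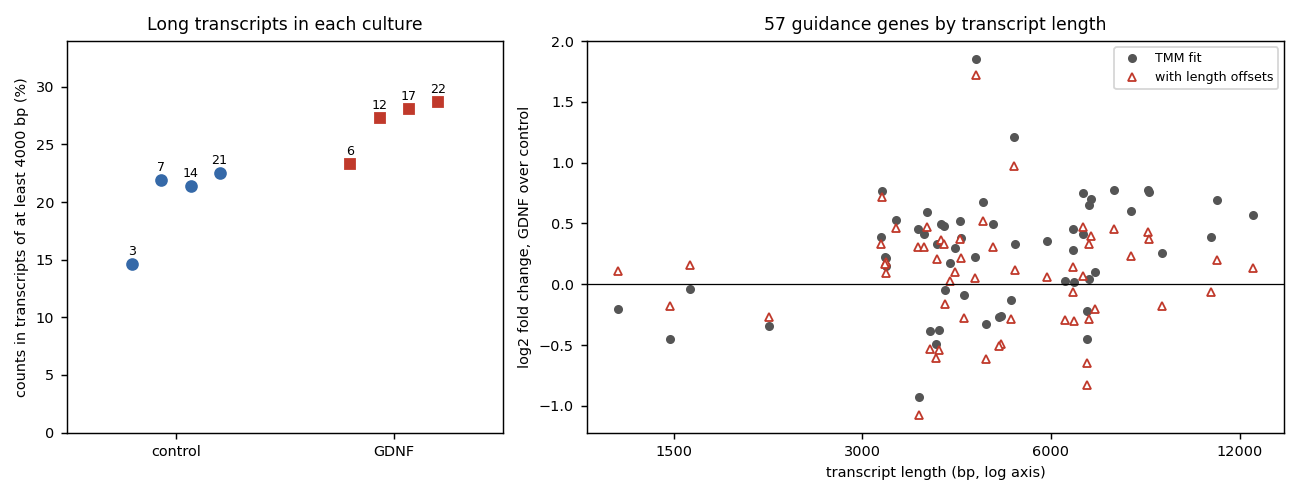
Left, percentage of each culture's counts in transcripts of at least 4000 bp, with the culture number at each point. Right, log2 fold change of the 57 members against transcript length on a log axis, as circles for the TMM-scaled fit and triangles with length offsets. All GDNF cultures lie above all controls on the left, and the longest members sit lower with length offsets on the right.

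Stromal content varied within both groups, and several members varied beside it. The stromal sum was 782, 1811, 4768 and 1718.5 CPM in controls 3, 7, 14 and 21 and 652, 2715, 3213 and 2163 CPM in GDNF cultures 6, 12, 17 and 22. All 10 stromal markers were tested, 1 was lower and 0 were higher at an unadjusted p of 0.05, and none was at 0 throughout. Control 14 had the highest sum of its group and GDNF 6 the lowest of its own. These 2 cultures were extremes for other cell types too. The podocyte marker sum was also highest among controls in 14 (395 CPM) and lowest after GDNF in 6 (85.4 CPM). In the same 2 cultures the tubule epithelium sum was lowest among controls (579 CPM) and highest after GDNF (2225 CPM), as was the collecting duct sum (22.6 and 218 CPM). The pattern is therefore not particular to stroma. The same pattern, highest control in 14 and lowest GDNF value in 6, was shown by 14 of 57 members, or 24.6% against 14.1% of all genes. These were *Epha3*, *Epha6*, *Nrp2*, *Plxna4*, *Plxnd1*, *Robo2*, *Sema3a*, *Sema3g*, *Sema4c*, *Sema5a*, *Sema6b*, *Sema6c*, *Sema6d* and *Slit3*, listed here after their values were seen. The opposite pattern was shown by 11 members, or 19.3% against 13.1% of all genes, among them *Sema3f*, *Sema4a*, *Sema5b*, *Efna1* and *Sema3c*. The part of stromal, epithelial or podocyte content in any difference between groups was not tested.

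**Figure D5:**
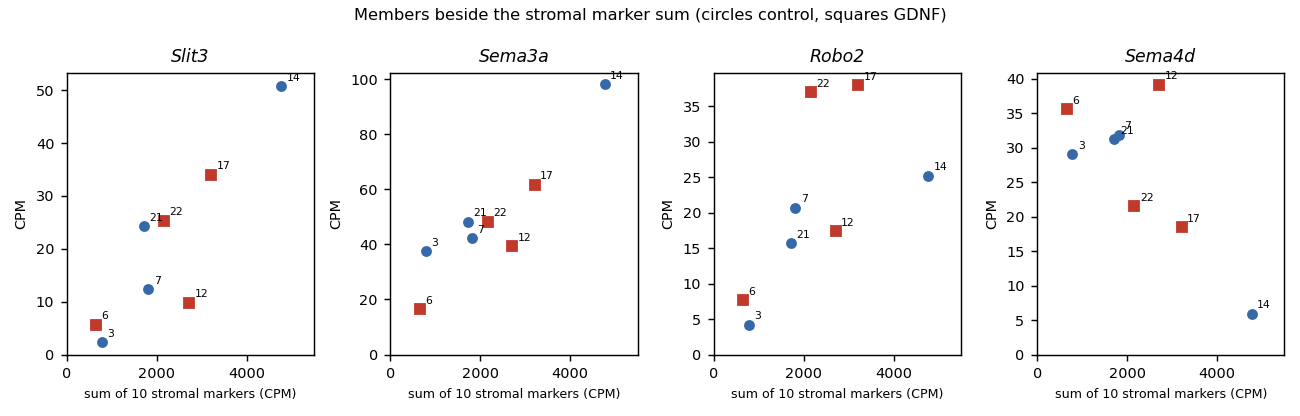
CPM of 4 members, chosen after their values were seen, against the summed CPM of 10 stromal markers, with circles for control and squares for GDNF cultures and the culture number beside each. *Slit3* and *Sema3a* are highest and *Sema4d* is lowest in control 14, which has the highest stromal sum. *Robo2* is instead highest in GDNF 17 and 22 (38.0 and 37.0 CPM, against 25.2 CPM in control 14). After GDNF *Sema4d* is highest in GDNF 12 and not in GDNF 6, which has the lowest stromal sum.

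Of 20 intracellular partners of Eph receptors and ephrins, 2 were higher and 3 were lower at an unadjusted p of 0.05. The smallest p values were those of *Sdcbp*, a PDZ scaffold that binds ephrin-B tails (log2 fold change -0.70 ± 0.19), and *Crk*, an adaptor (-0.46 ± 0.17). Of 20 semaphorin and plexin effectors, 4 were higher and 4 were lower, led by the small GTPase *Rap1b* (-0.65 ± 0.17) and *Mical3*, a flavoprotein monooxygenase of the Mical family that acts on actin (0.63 ± 0.19). Of 14 other semaphorin receptors, coreceptors and linked genes, among them the VEGF ligands *Vegfa* and *Vegfc*, 2 were higher and 2 were lower. The smallest p values were those of *Timd2* (-2.16 ± 0.65), a receptor of *Sema4a*, and the integrin *Itga1* (0.49 ± 0.15). Of 16 partners of Slits and Robos 2 were higher and 4 were lower, led by the heparan sulphate carrier *Sdc1* (-0.66 ± 0.17) and the GTPase *Cdc42* (-0.66 ± 0.20). None of these passed an adjusted p of 0.05. With length offsets the counts became 1 higher and 2 lower, 0 and 3, 1 and 2, and 1 and 5 in the same order of lists. The shares of all genes beside these counts were 9.25% higher and 12.9% lower, and 6.57% and 10% with length offsets.

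Of 15 netrin pathway and other guidance genes 2 were higher and 0 were lower, namely the netrin receptors *Unc5b* (0.31 ± 0.12) and *Neo1* (0.47 ± 0.20), and with length offsets 0 were higher. Beside this and the counts that follow, 9.25% of all genes were higher and 12.9% lower, or 6.57% and 10% with length offsets. Of 16 genes of the GDNF-Ret axis 2 were higher and 0 were lower, the GDNF coreceptor *Gfra1* (0.57 ± 0.21) and the transcription factor *Lhx1* (0.92 ± 0.37). With length offsets the count was again 2 higher and 0 lower, but *Gfra1* (0.36) no longer passed and *Etv4* (0.35), a target of Ret signalling that is named after its value was seen, passed beside *Lhx1* (0.91). Markers of cells that also use guidance genes were counted in the same way. Of 9 endothelial markers 2 were higher and 1 was lower, with a summed level of 111 to 187 CPM in controls and 109 to 156 CPM after GDNF. Of 10 tubule epithelium markers 0 were higher and 1 was lower. No marker passed in either direction among 6 of the proximal tubule, 7 of the collecting duct, 7 of podocytes, 5 of macrophages and 5 of neurons and glia. With length offsets 1 proximal tubule marker was higher and 1 lower, 1 macrophage marker was higher, 1 endothelial marker was higher and 0 were lower, and 0 tubule epithelium markers passed. The 8 listed neural and glial genes summed to at most 21.4 CPM, and 2 of them were at 0 in every culture.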

How the data were processed

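Poly-A selected SMART-Seq v4 libraries of 4 GDNF-pulsed and 4 control tubuloid cultures were analysed. The authors aligned reads with STAR to mm10 and deposited, for each of 33068 RefSeq transcripts, a count, FPKM and TPM; featureCounts and DESeq2 are also named in the submitters' processing notes, without versions. The deposited counts list reads that fit several transcripts under each, and do not separate strands as far as stated, so a gene and an antisense partner may share reads. FPKM, deposited beside them, was not used.

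Counts were summed by symbol, filtered (filterByExpr) and fitted with edgeR 4.0.16 quasi-likelihood tests with TMM factors over all 16557 genes, with Benjamini-Hochberg adjustment (biological CV 36.8%). SE is the log2 fold change divided by the square root of F. Levels are deposited TPM of the transcript with most reads. DESeq2 1.42.0, limma-voom 3.58.1 with quality weights, other scalings and filters, the kind of culture as covariate and leaving out each culture were alternatives. Length offsets (a spline with 5 degrees of freedom on log2 length per culture) were chosen after seeing the data. Scripts were tested on simulated counts. The precision rests on 4 cultures per group and, for the rarest genes, on few reads.

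Members and lists were chosen with earlier results of these data known. Named were the 2 members of each family with the highest TPM, those past an unadjusted p of 0.05, those whose groups did not overlap, those with a culture far from its group, and ligand or receptor partners or ends of a range; for each partner list, the 2 genes with the smallest p. Coordinates and promoter sequences are RefSeq's for GRCm38.p6.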

Additional observations from a re-analysis of the deposited data

Results flagged for a closer look

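Among 114 groups of 4 cultures (57 members in 2 groups), 7 held 1 culture far from the other 3 by Dixon's criterion, and chance gives about 1 in 20, or 5.7. Control 3 was high for *Efna1* (105.7 CPM, others 38.0 to 45.1) and *Efna3* (2.38 CPM, others 1.37 to 1.48), and low for *Ephb3* (14.9 CPM, others 21.998 to 22.9). Control 14 was high for *Efnb1* (63.6 CPM, others 44.4 to 47.5) and low for *Sema4d* (5.91 CPM, others 29.0 to 31.9). GDNF 17 was high for *Efnb1* (79.5 CPM, others 51.0 to 52.2), and GDNF 12 was high for *Plxnc1* (1.92 CPM, others 0.830 to 0.986). No member differed in its GDNF effect between the *Xist* and the Y-linked cultures at an adjusted p of 0.05 (edgeR interaction term), and 0 members did at an unadjusted p of 0.05, beside 0.568% of all genes. With only 2 cultures of each kind in a group, this test could miss most differences and does not show an equal effect.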

How the results depend on the processing

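No paired analysis was possible because the GDNF and control groups share no culture numbers. With 4 cultures a group and libraries that differ in length profile, only *Sema3f*, *Sema5b* and *Robo1* of the members named were past an unadjusted p of 0.05 in each of the 19 alternatives computed per gene (18 for *Sema5b*, which a minimum mean of 1 CPM removed). These 3 were already picked by that threshold in the main fit, and the alternatives refit the same cultures. Staying past it therefore adds no support, and no share of all genes is given for it. Length offsets with 1 culture left out were not among the 19. The count of members past an adjusted p of 0.05 was 0 in edgeR, beside 0% of all genes. In DESeq2 it was 1, beside 1.36% of genes higher and 7.65% lower, or 4 at 0.1, beside 4.91% higher and 14.8% lower. The members higher at an unadjusted p of 0.05, 9 as reported (9.25% of all genes), were 17 with library size only (19.9%) and 4 with length offsets (6.57%). The medians with these 2 scalings were 0.53 and 0.12. Leaving out 1 culture gave 5 (without GDNF 22) to 13 (without control 14) members higher and medians of 0.22 to 0.34, beside 5.19% and 8.53% of all genes higher in those fits and 5.19% to 10.2% over the 8 fits. It gave 0 to 2 lower, beside 7.88% to 15.3% of all genes: *Robo4* at -2.97 without GDNF 17, and *Epha2* and *Sema3c* without control 14. With length offsets and 1 GDNF culture left out (6, 12, 17 and 22 in turn), 2, 4, 5 and 3 were higher, beside 5.53%, 4.51%, 5.65% and 4.09% of all genes, with medians of 0.031, 0.146, 0.096 and 0.056. With 1 control left out (3, 7, 14 and 21 in turn), 2, 5, 6 and 2 were higher, beside 4.24%, 7.09%, 7.48% and 6.24%, with medians of 0.076, 0.118, 0.192 and 0.152. In these fits 2 members were lower without GDNF 17, control 7 or control 14, beside 8.51%, 11.6% and 9.86% of all genes, and 0 in the others. Members with all GDNF values above the controls, 4 as reported (6.99% of all genes), were 11 with library size only (14.5%), 15 on deposited TPM (20.6%) and 1 with length offsets (5.07%).

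Of the fold changes of the members named, 430 kept direction and side of the threshold over the alternatives, 16 passed it, 29 lost it and 18 changed sign, none of the last with an unadjusted p under 0.05 in either fit; the causes were not tested. With length offsets the sign changed for *Efna3* (0.113), *Plxna1* (-0.181), *Plxnb2* (-0.067), *Plxnc1* (-0.207) and *Sema5a* (-0.065). With library size only it changed for *Efna3* (0.044) and *Ephb4* (0.146), and with limma-voom for *Ephb4* (0.064). Leaving out 1 culture moved *Efna1* from -0.762 to 0.0081 (positive without control 3), *Efna3* from -0.424 to 0.020 (positive without control 3) and *Ephb4* from -0.205 to 0.041 (positive without control 3, 0.022, and without GDNF 6). It moved *Plxnc1* from -0.251 to 0.603 (negative without GDNF 12, control 3 or control 14), *Sema4d* from -0.0995 to 0.388 (negative without control 14) and *Slit3* from -0.725 to 0.524 (positive without GDNF 6 or control 14). Levels summed over transcripts moved 8 of 26 mean TPM values by over 1 SD, for example that of *Plxnb2* to 61.1 TPM.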
